A study of Mus musculus with 15 samples.

Results

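Imprinted genes are expressed from only 1 parental copy, and their signals were compared here between beta cells, alpha cells and Pdx1-deficient cells of mouse pancreatic islets. The list held 39 genes of known imprinted domains. Of these, 35 were measured by a transcript cluster annotated to that gene alone, out of 19938 genes measured in this way. No cluster was annotated to H19 or Zrsr1, and those of Snrpn and Gnas were shared with Snurf and Gnasas1, so these 4 were not measured. The list was chosen with 2 of its members in view: Zim1 and Peg10 had been seen to be high outside beta cells in these same arrays. Their differences are therefore described without a test, and counts cover the 33 other measured members.

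Total RNA of islet cells was hybridised to 15 arrays (Affymetrix Mouse Gene 1.0 ST), 5 per group. All mice had a mixed B6 and BALB/C background. Arrays titled beta cell carry the genotype label glucagon-Cre; RosaYFP, and arrays titled alpha cell the label RIP-CreER; Pdx1fl/+, RosaYFP. Both sets of controls were sorted for the YFP reporter from mice aged 2 months. The third group is labelled Pdx1-deficient (PKO) and reprogrammed cells, and was taken 5 days after tamoxifen; its full genotype, age and sort were not given in the sources used here. Glucagon-Cre is driven by the glucagon promoter, usually active in alpha cells, and RIP-CreER by the rat insulin promoter, usually active in beta cells, so the genotype labels run opposite to the titles. Groups follow the titles, source names and cell subtypes, which name 1 cell type per sample. A reporter marks only cells in which the driver was active. Whether each array came from its own animal is not stated, so p-values here reflect spread from array to array, which may be technical only.

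In genomic imprinting, DNA methylation set in the egg or sperm marks a region by parent, and 1 parental copy of a gene is silent. Imprinted genes often lie in clusters under shared control regions, and many act on growth, metabolism and hormone secretion. Many clusters hold a noncoding RNA expressed from the parental copy on which protein-coding genes are silent. In islets, imprinted genes are known for links to insulin secretion and to neonatal diabetes. The arrays measure both parental copies together, so a changed signal cannot be assigned to 1 allele. In bulk samples, a different share of cells of a type and a different amount of RNA per cell cannot be told apart.

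Values are log2 signals, and fold changes hold only if the unstated log base is 2. The values ran from 2.11 to 13.45, with array medians of 5.88 to 6.05. Markers followed the titles in part: of 11 measured beta-cell markers 6 were lower in alpha arrays, and of 8 alpha-cell markers 4 were higher (limma, adjusted p under 0.05). The hormone genes themselves differed little between these groups. Ins2 averaged 11.90 in beta and 12.00 in alpha arrays, and Gcg 12.35 and 12.74 (difference 0.39, limma adjusted p = 0.0638). These means lay toward the top of the range of values, and whether the signals were saturated was not tested. 3 arrays stood apart. In Pdx1-deficient replicate 1 the target gene Pdx1 read 9.12, within the beta range of 8.85 to 9.33, while the other 4 read 6.53 to 7.83; its beta-marker mean was 10.37, against 8.87 to 9.50 in the others. Alpha replicate 2 had an alpha-marker mean of 8.66, below the 9.39 to 9.56 of its group and near the 8.22 to 8.58 of beta arrays. Alpha replicate 5 had a mean of 11.02 over 11 acinar markers, where the rest of its group had 6.09 to 7.29. The mean over 9 stromal markers was 5.29 to 5.53 in beta, 5.36 to 6.11 in alpha and 5.57 to 5.80 in Pdx1-deficient arrays, so every Pdx1-deficient array lay above every beta array. Whole arrays showed the same order, with medians of 5.88 to 5.93 in beta and 5.96 to 6.05 in Pdx1-deficient arrays. All 9 stromal markers had a positive difference from beta in both groups. Of all 19938 genes, 11612 were positive in alpha and 12123 in Pdx1-deficient cells. 1 of 9 was called in alpha cells (Rgs5, 1.07, limma adjusted p = 0.0365) and 0 of 9 in Pdx1-deficient cells. At an unadjusted limma p under 0.05 there were 3 of 9 and 1 of 9, against 20.7% and 21.8% of all genes. The part of the stromal markers in the differences from beta cells was not tested. The call for Pdx1 itself between Pdx1-deficient and beta arrays was not reached with all arrays (difference -1.39, limma adjusted p = 0.0575). Without Pdx1-deficient replicate 1 the Pdx1 difference was -1.74. With 1 array left out it ran from -1.74 to -1.09, and 1 of 15 such fits passed the threshold. Of all 24 alternative fits, 5 passed it (limma adjusted p = 0.00617 to 0.133 over the 24). Results that rest on these arrays are given with and without them.

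Against beta cells, 8 of the 33 members changed in alpha cells: Sgce, Asb4, Grb10, Nap1l5 and Meg3 were higher, and Tssc4, Rasgrf1 and Igf2r lower. Over all 19938 genes, 0.893% were higher and 3.15% lower in this comparison. In Pdx1-deficient cells, 3 of the 33 changed against beta cells: Plagl1 was higher, and Tssc4 and Igf2r lower. The shares over all genes were 0.16% higher and 0.928% lower. Between Pdx1-deficient and alpha cells no member passed the threshold, and no gene of the 19938 did (0% higher and 0% lower by limma with Benjamini-Hochberg adjustment); at an unadjusted p under 0.05 there were 7 of the 33 members and 1197 genes. Leaving out any 1 array moved the count in alpha cells between 3 and 9, the count in Pdx1-deficient cells between 0 and 4, and that between Pdx1-deficient and alpha cells between 0 and 3. The lowest alpha count, 3, came without alpha replicate 3 or without beta replicate 4. Over all genes the calls moved too, between 328 and 1430 in alpha cells (806 with all arrays), between 0 and 548 in Pdx1-deficient cells (217) and between 0 and 145 in the comparison of those groups (0). The Pdx1-deficient count of members was 0 without any 1 of Pdx1-deficient replicates 2, 4 and 5 or beta replicates 1, 4 and 5. Without alpha replicate 2 and Pdx1-deficient replicate 1 the 3 counts were 9, 3 and 3, the last being Asb4, Grb10 and Sgce, all lower in Pdx1-deficient than in alpha cells, among 177 genes called of 19938.

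The median difference of the 33 members was 0.11 in alpha minus beta arrays, against 0.04 over all genes. In Pdx1-deficient minus beta arrays it was also 0.11, against 0.06. With array medians subtracted these medians were 0.03 against -0.04 in alpha and 0.02 against -0.04 in Pdx1-deficient arrays, so those over all genes changed sign. The arrays of the alpha and beta groups did not overlap for 5 of the 33 members, or 15.2%, against 6.34% of all genes. For Pdx1-deficient and beta arrays this held for 4 members, or 12.1%, against 5.96% of all genes. For Pdx1-deficient and alpha arrays it held for no member and for 0.637% of all genes. Both comparisons against beta cells use the same 5 beta arrays.

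**Figure D1:**
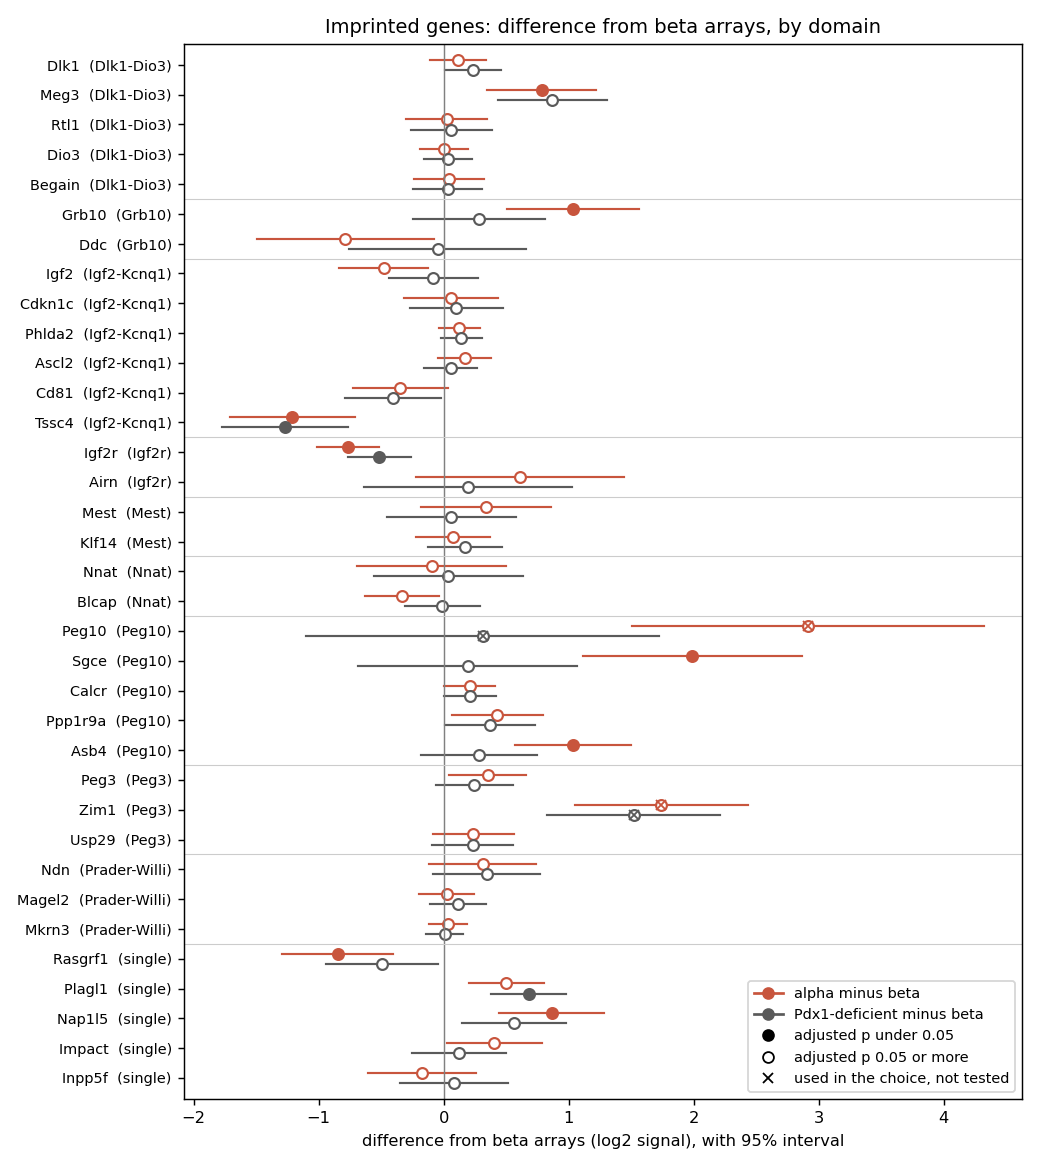
Difference in log2 signal from the 5 beta arrays for the 35 measured imprinted genes, grouped by domain, for alpha arrays (red) and Pdx1-deficient arrays (grey), with bars for 95% intervals. Filled circles have a limma adjusted p under 0.05; crosses mark Zim1 and Peg10, which were used in the choice of the list. The largest differences in alpha arrays are those of Peg10, Sgce and Zim1, and in Pdx1-deficient arrays those of Zim1 and Tssc4.

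Among the members that changed against beta cells, or were higher outside them, 5 held in 1 of their promoter windows the hexamer that ZFP57 binds when it is methylated. ZFP57 is a zinc finger protein that keeps methylation at imprinting control regions. The windows run from 250 bases before to 50 after a RefSeq start (GRCm38.p6), and the hexamer was searched as TGCCGC on both strands (GCGGCA on the other); none of the motifs searched contains another. It is in capitals in the windows that follow. These 5 genes were picked by their higher signals in these same arrays, and Zim1 was used in the choice of the list. A link between the hexamer and the signals was not tested.
Zim1 (chr7:6696383-6696682, minus strand): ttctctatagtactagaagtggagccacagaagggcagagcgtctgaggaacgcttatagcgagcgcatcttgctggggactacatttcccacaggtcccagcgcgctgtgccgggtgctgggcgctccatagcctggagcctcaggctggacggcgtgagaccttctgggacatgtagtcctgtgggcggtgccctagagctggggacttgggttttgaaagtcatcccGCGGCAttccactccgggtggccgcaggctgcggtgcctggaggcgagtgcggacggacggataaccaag
Meg3 (chr12:109540746-109541045, plus strand): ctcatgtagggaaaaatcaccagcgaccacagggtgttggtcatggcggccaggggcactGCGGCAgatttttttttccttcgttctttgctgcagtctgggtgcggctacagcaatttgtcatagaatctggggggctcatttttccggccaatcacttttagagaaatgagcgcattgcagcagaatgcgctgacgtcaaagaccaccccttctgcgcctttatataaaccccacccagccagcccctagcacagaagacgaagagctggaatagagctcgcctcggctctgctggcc
Plagl1 (chr10:13090582-13090881, plus strand): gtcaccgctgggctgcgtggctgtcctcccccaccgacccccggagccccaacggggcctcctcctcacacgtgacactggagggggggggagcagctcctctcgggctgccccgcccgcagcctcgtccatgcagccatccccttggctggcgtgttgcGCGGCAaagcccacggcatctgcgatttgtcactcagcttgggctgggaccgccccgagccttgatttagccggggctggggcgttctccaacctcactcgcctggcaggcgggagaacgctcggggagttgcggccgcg
Nap1l5 (chr6:58907077-58907376, minus strand): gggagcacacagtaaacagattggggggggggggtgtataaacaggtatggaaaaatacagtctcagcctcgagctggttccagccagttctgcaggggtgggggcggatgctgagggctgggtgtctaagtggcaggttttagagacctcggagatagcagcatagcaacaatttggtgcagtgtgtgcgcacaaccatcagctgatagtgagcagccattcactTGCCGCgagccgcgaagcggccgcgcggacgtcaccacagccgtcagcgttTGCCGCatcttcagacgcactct
Grb10 (chr11:12037371-12037670, minus strand): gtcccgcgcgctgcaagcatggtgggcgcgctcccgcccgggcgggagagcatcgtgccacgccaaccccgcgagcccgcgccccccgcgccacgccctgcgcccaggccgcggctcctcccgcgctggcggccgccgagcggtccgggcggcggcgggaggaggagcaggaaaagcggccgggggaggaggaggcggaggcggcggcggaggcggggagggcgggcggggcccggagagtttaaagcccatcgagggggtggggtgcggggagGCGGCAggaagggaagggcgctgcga
The match began at base 231 of the Zim1 window, 61 in Meg3, 161 in Plagl1, 227 in Nap1l5, which had 2 matches, and 275 in Grb10, counted from the first base printed. By gene, 10 of 32 matched members held the hexamer, or 31.2%, against 13.1% of 27025 genes. By window, 11 of 53 held it, or 20.8%, against 11.6% of 32851 windows of all genes, with overlapping Mest windows counted apart. The windows of Asb4, Rasgrf1, Igf2r and Tssc4, which also changed, did not hold it, and those of Calcr, Igf2, Mest and Nnat, which did not pass the threshold, and of Snrpn, which was not measured, did. Peg10 and Sgce were not matched to a window. A match describes these letters and is not a bound site. The hexamer holds a CpG pair (C followed by G), and the members' windows had more of these pairs (median 17 against 7 over all windows). The part of CpG content in the shares was not tested.

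The promoter windows of the members lower in both alpha and Pdx1-deficient cells, Igf2r and Tssc4, are shown for their CpG pairs, the sites of DNA methylation, in capitals.
Igf2r (chr17:12769657-12769956, minus strand): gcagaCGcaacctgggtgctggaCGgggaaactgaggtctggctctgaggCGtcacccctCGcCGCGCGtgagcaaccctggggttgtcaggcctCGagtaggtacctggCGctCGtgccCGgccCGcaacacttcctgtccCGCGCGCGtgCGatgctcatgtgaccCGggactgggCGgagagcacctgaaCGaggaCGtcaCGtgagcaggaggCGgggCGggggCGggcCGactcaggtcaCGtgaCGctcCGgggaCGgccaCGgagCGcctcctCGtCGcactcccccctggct
Tssc4 (chr7:143069118-143069417, plus strand): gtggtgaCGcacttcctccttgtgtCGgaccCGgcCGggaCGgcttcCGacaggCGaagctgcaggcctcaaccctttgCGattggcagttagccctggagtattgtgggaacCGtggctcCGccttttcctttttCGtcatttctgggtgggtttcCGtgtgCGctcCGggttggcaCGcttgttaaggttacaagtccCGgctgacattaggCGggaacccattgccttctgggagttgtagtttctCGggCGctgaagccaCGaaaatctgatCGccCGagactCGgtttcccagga
Igf2r had 34 CpG pairs and Tssc4 23 in these 300 bases. Such counts were not particular to the lower members. The windows printed before held 45 in Grb10, 26 in Plagl1, 20 in Zim1, 17 in Nap1l5 and 13 in Meg3. The median over the members' windows was 17, and that over all windows was 7. The homeobox core TAATTA, which proteins of the Pdx1 class can bind, was in 3.77% of the members' windows and 5.29% of all windows. The TATA box (TATAAA, both strands) was in 22.6% and 13.6%. Methylation was not measured in this study.

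In alpha against beta cells, the largest differences of the list were those of Peg10 and Sgce, both of the Peg10 domain. The former was used in the choice of the list, so its rank follows in part from that choice. Peg10 derives from a retrotransposon and is expressed from the paternal copy, as is Sgce, which encodes epsilon-sarcoglycan and starts beside Peg10 in the opposite direction. Peg10 read 6.79, 6.24, 6.35, 6.37 and 6.39 in beta arrays 1 to 5, 8.85, 6.82, 10.33, 10.60 and 10.12 in alpha arrays and 8.81, 5.66, 6.80, 6.59 and 5.84 in Pdx1-deficient arrays. All alpha arrays lay above all beta arrays, but alpha replicate 2 lay only just above, and Pdx1-deficient replicate 1 stood with the alpha arrays. The alpha minus beta difference was 2.92 with a 95% interval of 1.51 to 4.33, a 7.54-fold higher signal, and 3.55 without alpha replicate 2. Pdx1-deficient minus beta was 0.31 (interval -1.10 to 1.72) and changed sign to -0.21 without Pdx1-deficient replicate 1.

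Between Pdx1-deficient and alpha cells, the Peg10 difference was -2.60 (interval -4.01 to -1.19). It was -3.23 without alpha replicate 2 and -3.12 without Pdx1-deficient replicate 1. The alpha values entered the choice of the list, so no test is given for this difference either.

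Sgce read 6.20, 5.60, 5.96, 5.81 and 5.68 in beta arrays, 8.55, 5.96, 8.17, 8.42 and 8.10 in alpha arrays and 6.99, 5.44, 6.15, 5.72 and 5.91 in Pdx1-deficient arrays, in replicate order. Alpha arrays 1, 3, 4 and 5 lay more than 1 unit above every other array, while alpha replicate 2 fell within the beta range. On 6 of the 15 arrays, all of them beta or Pdx1-deficient, Sgce was below the median of its own array. Sgce was higher in alpha than in beta cells by 1.99 ± 0.41 (SE), or 3.97-fold (limma adjusted p = 0.0169), and this call held without any 1 array. In both Sgce and Peg10, alpha replicate 2 was the lowest alpha array and Pdx1-deficient replicate 1 the highest of its group. Sgce starts beside Peg10, so its call may not be independent of the choice of the list. Its difference between Pdx1-deficient and beta cells was 0.19 (interval -0.68 to 1.07), and -0.04 without Pdx1-deficient replicate 1. Against alpha cells it was -1.80 (adjusted p = 0.319), and without alpha replicate 2 it was -2.27 (adjusted p = 0.000613).

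Asb4, which encodes a subunit of a ubiquitin ligase and is expressed from the maternal copy, showed the same split of arrays. It read 5.57, 5.51, 5.41, 5.11 and 5.60 in beta arrays, 6.50, 5.51, 6.65, 6.90 and 6.81 in alpha arrays and 5.72, 6.12, 5.73, 5.57 and 5.47 in Pdx1-deficient arrays. Alpha replicate 2 again lay among the beta arrays, and the other 4 alpha arrays lay above all others. Asb4 was below the median of its own array on 10 of the 15 arrays, all beta arrays included. Asb4 was higher in alpha than in beta cells by 1.03 ± 0.22 (SE), or 2.05-fold (limma adjusted p = 0.0182). The adjusted p was 0.0504 to 0.0514 without alpha replicate 3 or beta replicate 4, with differences of 0.95 to 0.99. Against alpha cells, Pdx1-deficient cells were lower by a difference of -0.75 (adjusted p = 0.435), and without alpha replicate 2 by -0.99 (adjusted p = 0.00308).

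The other measured members of the domain, both maternally expressed, did not pass the threshold. Ppp1r9a, which encodes the actin-binding protein neurabin, averaged 7.29 ± 0.34 in beta, 7.72 ± 0.29 in alpha and 7.66 ± 0.21 in Pdx1-deficient arrays (SD, n = 5). Its alpha minus beta difference was 0.43 (limma adjusted p = 0.168), and 0.30 without alpha replicate 5, its highest array. Calcr, the calcitonin receptor, lay below the median of its own array on all 15 arrays and differed by 0.21 from beta cells in both comparisons. Alpha replicate 2, the array lowest of its group in Peg10, Sgce and Asb4, also had the lowest alpha-marker mean of its group and a stromal-marker mean of 5.36, where the rest of its group had 5.69 to 6.11. The part of these markers in the differences was not tested.

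**Figure D2:**
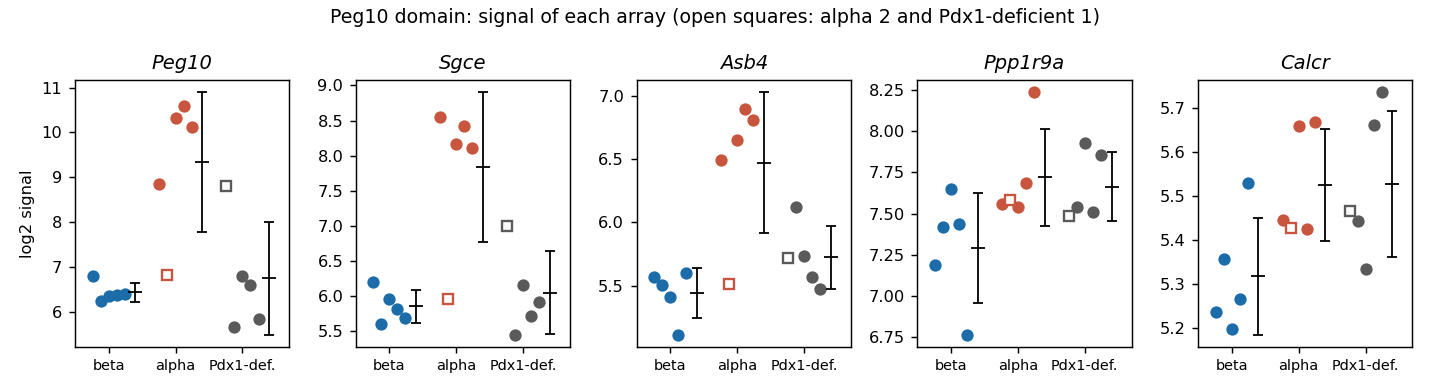
Log2 signal of each array for 5 genes of the Peg10 domain in beta, alpha and Pdx1-deficient groups, with bars for mean ± SD (n = 5) and a separate axis for each gene. Open squares are alpha replicate 2 and Pdx1-deficient replicate 1; for Peg10, Sgce and Asb4 the former lies with or just above the beta arrays, and for Peg10 and Sgce the latter is the highest of its group.

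In the Peg3 domain, Zim1 was high in both groups outside beta cells. Zim1 is a maternally expressed zinc finger gene beside the paternally expressed Peg3. It read 6.87, 7.69, 8.29, 8.05 and 7.25 in beta arrays, 8.27, 9.31, 10.06, 10.08 and 9.14 in alpha arrays and 9.12, 8.76, 9.40, 9.22 and 9.26 in Pdx1-deficient arrays. The Pdx1-deficient arrays, replicate 1 included, all lay above the beta arrays, and alpha replicate 1 lay just below the highest beta array. The differences from beta were 1.74 (interval 1.05 to 2.43) in alpha and 1.52 (0.83 to 2.21) in Pdx1-deficient cells, or 3.34-fold and 2.87-fold. Pdx1-deficient minus alpha was -0.22, with an interval of -0.91 to 0.47, again without a test.

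The other 2 members of the domain did not pass the threshold. Peg3, a zinc finger transcription factor, averaged 11.39 ± 0.35 in beta, 11.74 ± 0.15 in alpha and 11.63 ± 0.16 in Pdx1-deficient arrays (SD, n = 5). Its alpha minus beta difference was 0.35 (limma adjusted p = 0.179). Usp29, a deubiquitinase gene whose promoter window shares 263 bases with that of Peg3 in the opposite direction, averaged 6.08 ± 0.29, 6.32 ± 0.15 and 6.32 ± 0.29 in the same order. Its differences from beta were 0.24 and 0.23, with adjusted p of 0.389 and 0.361.

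In the Dlk1-Dio3 domain, the maternally expressed long noncoding RNA Meg3 differed. Meg3 read 8.43, 9.64, 9.70, 9.44 and 9.10 in beta arrays, 9.95, 9.87, 10.44, 10.27 and 9.71 in alpha arrays and 10.18, 10.11, 10.15, 10.12 and 10.11 in Pdx1-deficient arrays. Every alpha and every Pdx1-deficient array lay above every beta array, and beta replicate 1 was the lowest. It was higher in alpha than in beta cells by 0.78 ± 0.20 (SE), or 1.72-fold (limma adjusted p = 0.0446). Pdx1-deficient minus beta was larger, 0.87, but missed the threshold (adjusted p = 0.0517). The alpha call was lost without any 1 of 11 arrays, namely all but Pdx1-deficient replicate 4, alpha replicate 2 and beta replicates 2 and 3, with adjusted p of 0.0515 to 0.114 and differences of 0.58 to 0.87.

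The other measured members of this domain, all protein-coding, did not pass the threshold. Dlk1, a Notch-ligand relative, averaged 6.40 ± 0.14 in beta, 6.52 ± 0.17 in alpha and 6.64 ± 0.16 in Pdx1-deficient arrays, and its largest difference was 0.24 (limma adjusted p = 0.209). Rtl1, derived from a retrotransposon, Dio3, the deiodinase that inactivates thyroid hormone, and Begain differed from beta by 0.00 to 0.06. Of these, Dio3 and Begain lay below the median of their own array on all 15 arrays. A cluster's brightness depends on its probes as well as on the RNA, so signals of different genes were not ranked.

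In the Grb10 domain, Grb10 itself was higher in alpha cells. Grb10, which encodes an adaptor that binds and restrains the insulin receptor, read 7.48, 7.70, 7.16, 7.31 and 7.13 in beta arrays, 8.46, 7.26, 8.49, 9.10 and 8.64 in alpha arrays and 7.80, 7.39, 7.68, 7.63 and 7.68 in Pdx1-deficient arrays. As for Sgce and Asb4, alpha replicate 2 lay within the beta range and the other alpha arrays above all others. It was higher in alpha than in beta cells by 1.04 ± 0.25 (SE), or 2.05-fold (limma adjusted p = 0.0324). This call was lost without any 1 of alpha replicates 1, 3, 4 and 5 or beta replicates 1, 3, 4 and 5 (adjusted p = 0.0596 to 0.0788, differences 0.86 to 1.07). Pdx1-deficient minus alpha was -0.75 (adjusted p = 0.558), and -1.04 without alpha replicate 2 (adjusted p = 0.00324). Ddc, the enzyme that makes dopamine and serotonin from their precursors, averaged 10.66 ± 0.20 in beta and 9.88 ± 0.93 in alpha arrays (SD, n = 5). Its difference of -0.79 did not pass the threshold (adjusted p = 0.195), and without alpha replicate 2, its highest alpha array at 11.16, it was -1.11 and did (adjusted p = 0.0204).

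Igf2r was lower in both groups outside beta cells. It encodes the receptor that clears the growth factor IGF2 and carries enzymes to lysosomes, and it is expressed from the maternal copy. Igf2r read 9.14, 8.83, 8.91, 9.02 and 9.28 in beta arrays, 8.19, 8.64, 8.19, 8.11 and 8.22 in alpha arrays and 8.45, 8.45, 8.74, 8.62 and 8.35 in Pdx1-deficient arrays. No alpha or Pdx1-deficient array reached the lowest beta array. The alpha minus beta difference was -0.77 ± 0.12 (SE), a 1.70-fold lower signal (limma adjusted p = 0.0052), and it passed the threshold without any 1 array. Pdx1-deficient minus beta was -0.51 ± 0.12 (SE, adjusted p = 0.0497), just past the threshold. That call held without any 1 of Pdx1-deficient replicate 3, alpha replicate 2 and beta replicate 2 and was lost without any 1 of the other 12 arrays (adjusted p = 0.0549 to 0.123, differences -0.55 to -0.45). Airn, the paternally expressed RNA that runs antisense through Igf2r, averaged 7.61 ± 0.73 in beta, 8.21 ± 0.69 in alpha and 7.80 ± 0.61 in Pdx1-deficient arrays. Its difference in alpha cells, 0.61 with an interval of -0.22 to 1.44, was smaller than the spread could resolve (adjusted p = 0.389).

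In the Igf2 and Kcnq1 domain, Tssc4, a maternally expressed gene of the Kcnq1 cluster, was lower in both groups. Tssc4 read 7.72, 7.17, 7.46, 7.52 and 8.52 in beta arrays, 6.72, 6.60, 6.25, 6.51 and 6.25 in alpha arrays and 6.77, 6.71, 6.37, 5.70 and 6.50 in Pdx1-deficient arrays. The groups did not overlap with the beta arrays in either comparison. The alpha minus beta difference was -1.21 ± 0.23 (SE), a 2.31-fold lower signal (limma adjusted p = 0.0128), and this call held without any 1 array. Pdx1-deficient minus beta was -1.27 ± 0.23 (SE), or 2.41-fold lower (adjusted p = 0.0316). It was lost without any 1 of Pdx1-deficient replicates 2, 4 and 5 or beta replicates 1, 4 and 5 (adjusted p = 0.0528 to 0.079, differences -1.34 to -1.06). Between Pdx1-deficient and alpha cells the difference was -0.06, with an interval of -0.56 to 0.44.

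The 5 other measured genes of that domain did not pass the threshold. Igf2, the paternally expressed growth factor, averaged 6.75 ± 0.27 in beta, 6.27 ± 0.27 in alpha and 6.67 ± 0.29 in Pdx1-deficient arrays, with an alpha minus beta difference of -0.48 (limma adjusted p = 0.123). Cd81, a tetraspanin of the cell surface, averaged 10.22 ± 0.33, 9.88 ± 0.21 and 9.82 ± 0.35, and its Pdx1-deficient minus beta difference was -0.40 (adjusted p = 0.21). Cdkn1c, the cell-cycle inhibitor p57, differed from beta by 0.06 in alpha and 0.10 in Pdx1-deficient cells. Phlda2 and Ascl2, known for their roles in the placenta, lay below their array's median on all 15 arrays and differed by 0.06 to 0.17.

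Plagl1, Nap1l5 and Rasgrf1, paternally expressed genes of small domains, each changed in 1 of the comparisons. Plagl1, a zinc finger transcription factor whose excess dosage is known from transient neonatal diabetes, read 6.53, 6.62, 6.38, 6.43 and 6.23 in beta arrays, 6.90, 6.83, 7.12, 7.29 and 6.55 in alpha arrays and 7.04, 7.49, 6.86, 7.13 and 7.06 in Pdx1-deficient arrays. All Pdx1-deficient arrays lay above all beta arrays, while alpha replicate 5 lay within the beta range. Plagl1 was higher in Pdx1-deficient than in beta cells by 0.68 ± 0.14 (SE), or 1.60-fold (limma adjusted p = 0.0358). That call was lost without any 1 of Pdx1-deficient replicates 2, 4 and 5 or beta replicates 1, 3, 4 and 5 (adjusted p = 0.065 to 0.0891, differences 0.59 to 0.70). In alpha cells the difference was 0.50 and missed the threshold (adjusted p = 0.057), and without alpha replicate 5 it was 0.60 and passed it (adjusted p = 0.0341). The difference between Pdx1-deficient and alpha cells was 0.18 (interval -0.12 to 0.48).

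Nap1l5, a gene related to nucleosome assembly proteins, read 7.79, 8.44, 8.82, 8.34 and 7.96 in beta arrays, 8.97, 9.01, 9.31, 9.15 and 9.22 in alpha arrays and 8.33, 9.23, 8.77, 8.63 and 9.21 in Pdx1-deficient arrays. All alpha arrays lay above all beta arrays, and the Pdx1-deficient arrays reached from the beta into the alpha range. It was higher in alpha than in beta cells by 0.86 ± 0.20 (SE), or 1.82-fold (limma adjusted p = 0.0257). The call was lost without any 1 of alpha replicates 3, 4 and 5 or beta replicates 1, 4 and 5 (adjusted p = 0.0514 to 0.0682, differences 0.74 to 0.88). Pdx1-deficient minus beta was 0.57 (adjusted p = 0.134).

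Rasgrf1, an activator of Ras signalling known from neurons and beta cells, read 7.63, 7.23, 7.48, 7.85 and 7.68 in beta arrays, 6.94, 7.03, 6.66, 7.03 and 5.97 in alpha arrays and 7.66, 6.88, 7.20, 6.90 and 6.77 in Pdx1-deficient arrays. The alpha arrays all lay below the beta arrays, and Pdx1-deficient replicate 1 read like a beta array. It was lower in alpha cells by a difference of -0.85 ± 0.21 (SE), or 1.80-fold (limma adjusted p = 0.0371). This call was lost without any 1 of alpha replicates 1, 3 and 5 or beta replicates 1, 3, 4 and 5 (adjusted p = 0.0555 to 0.0865, differences -0.90 to -0.66). The lowest array, alpha replicate 5, is the one with high acinar markers, whose part in this value was not tested; without it the difference was -0.66 (adjusted p = 0.0651). Pdx1-deficient minus beta was -0.49 (adjusted p = 0.192) and -0.64 without Pdx1-deficient replicate 1 (adjusted p = 0.0909). It passed the threshold at the same difference when alpha replicates 2 and 5 were left out as well (adjusted p = 0.034). Impact, a regulator of translation, and Inpp5f, a phosphoinositide phosphatase, did not pass the threshold, with alpha minus beta differences of 0.41 and -0.18.

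**Figure D3:**
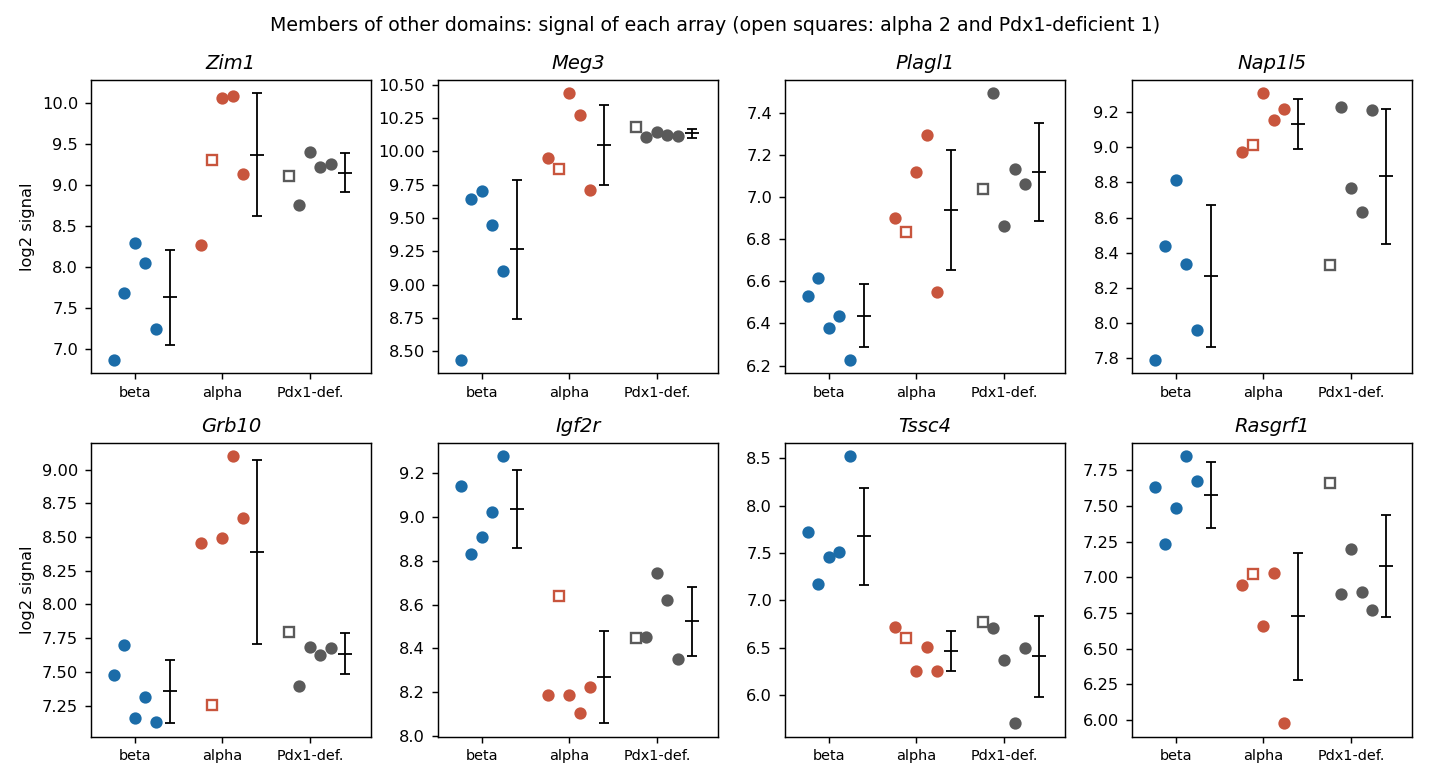
Log2 signal of each array for Zim1 and 7 imprinted genes called against beta cells, with bars for mean ± SD (n = 5) and a separate axis for each gene. Open squares are alpha replicate 2 and Pdx1-deficient replicate 1; alpha and Pdx1-deficient arrays lie apart from beta arrays for Meg3, Igf2r and Tssc4, while for Grb10 only alpha arrays other than replicate 2 do.

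The Mest, Nnat and Prader-Willi domains held no called member. Mest, named for its expression in mesoderm, averaged 5.72 ± 0.20 in beta, 6.06 ± 0.53 in alpha and 5.78 ± 0.45 in Pdx1-deficient arrays (SD, n = 5), and its neighbour Klf14, a maternally expressed transcription factor, differed from beta by 0.07 and 0.17. Nnat, or neuronatin, a small membrane protein known to affect insulin secretion, averaged 7.67 ± 0.48, 7.58 ± 0.27 and 7.71 ± 0.64, with differences from beta of -0.10 and 0.04. Without Pdx1-deficient replicate 1, where Nnat read 8.83, the latter was -0.24, and without alpha replicate 5 the former was 0.02. Blcap, in whose intron Nnat lies, was -0.34 in alpha minus beta arrays (limma adjusted p = 0.186). Ndn, a growth-restraining protein of neurons, averaged 7.87 ± 0.44, 8.19 ± 0.26 and 8.22 ± 0.29, with differences of 0.31 and 0.35 (adjusted p of 0.388 and 0.31). Magel2 and Mkrn3, of the same domain, lay below their array's median on all 15 arrays and differed by 0.01 to 0.11.

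By parent of origin, 5 of 12 maternally expressed and 3 of 18 paternally expressed members changed between alpha and beta cells, where 4.04% of all genes did. The maternally expressed ones were Asb4, Grb10 and Meg3, which were higher, and Igf2r and Tssc4, which were lower. The paternally expressed ones were Sgce and Nap1l5, which were higher, and Rasgrf1, which was lower. In Pdx1-deficient cells 2 of 12 and 1 of 18 changed, where 1.09% of all genes did. The difference between these shares was not tested. The parent labels are those known for each gene in general. Expression from 1 copy in adult islet cells was assumed and not measured.

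**Figure D4:**
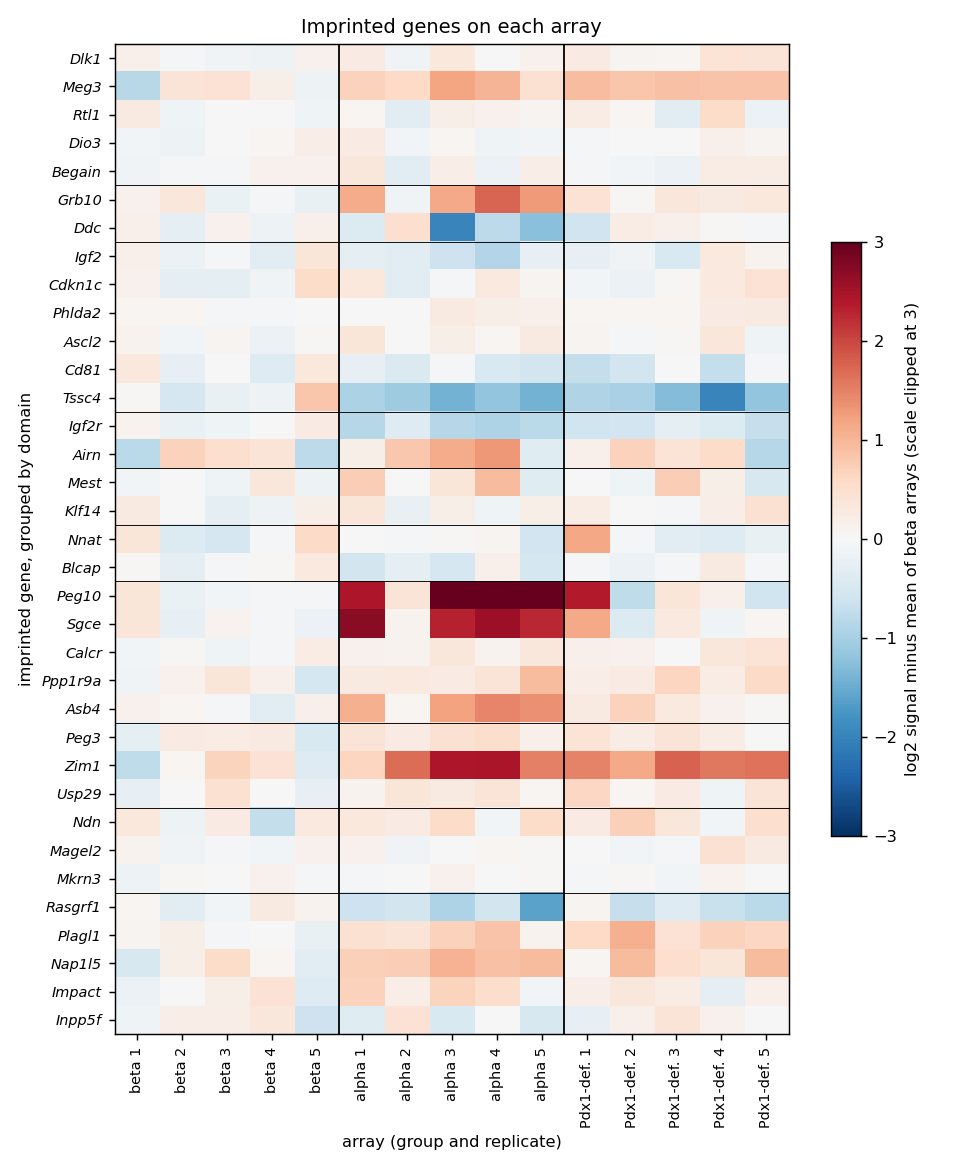
Log2 signal of the 35 measured imprinted genes (rows, grouped by domain) on each of the 15 arrays (columns), minus the mean of the 5 beta arrays, with red for higher and blue for lower and the colours clipped at 3. Alpha replicate 2 lacks the red of Peg10, Sgce, Asb4 and Grb10 that the other 4 alpha arrays carry, and Pdx1-deficient replicate 1 is red for Peg10 and Sgce.

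Genes that lie in the same domains but are not on the list were counted apart. Of 29 such neighbours 22 were measured. In alpha against beta cells 1 was higher, Cobl beside Grb10 (0.74, limma adjusted p = 0.0191), and 2 were lower, Pon2 beside Peg10 (-0.75, adjusted p = 0.0447) and Wars beside the Dlk1-Dio3 domain (-1.52, adjusted p = 0.0163); 4.04% of all genes were called there. Pon2 encodes a paraoxonase and Wars the enzyme that loads tryptophan onto its tRNA. In Pdx1-deficient against beta cells none was called by limma, where 1.09% of all genes were. At an unadjusted p under 0.05 there were 8 of 22, a level that 21.8% of all genes reached. The largest differences were those of Rian, a maternally expressed noncoding RNA beside Meg3, at 1.75 (adjusted p = 0.182), and of Wars at -1.06 (adjusted p = 0.092). Rian read 4.79 to 9.28 in beta, 6.71 to 9.23 in alpha and 9.12 to 10.19 in Pdx1-deficient arrays, so its groups overlapped. Beta replicate 5 read 4.79 and the other beta arrays 8.13 to 9.28. Without that array the Pdx1-deficient minus beta difference of Rian was 0.96. Between Pdx1-deficient and alpha cells 0 of the 22 were called by limma, as were 0% of all genes. At an unadjusted p under 0.05 there were 3 of the 22, a level that 6.0% of all genes reached.

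The enzymes and DNA-binding proteins that set, keep or erase imprints showed no called change. All 18 were measured, and 0 passed the threshold by limma in any of the 3 comparisons. Over all genes 4.04% passed in alpha and 1.09% in Pdx1-deficient against beta cells, and 0% between Pdx1-deficient and alpha cells. With so few genes, 0 of 18 is near these shares. At an unadjusted p under 0.05 there were 3, 3 and 1 of the 18 in the same order, against 20.7%, 21.8% and 6.0% of all genes. The largest alpha minus beta differences were those of Tet3 (-0.49, adjusted p = 0.105) and Tet2 (0.37, adjusted p = 0.342), which oxidise methylated cytosine. In Pdx1-deficient minus beta arrays they were those of Tet2 (0.53, adjusted p = 0.172) and Zfp445 (0.36, adjusted p = 0.313), an imprint-keeping zinc finger protein. Zfp57 differed from beta by 0.03 and 0.01.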

How the data were processed

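Each of the 15 samples is 1 array. The deposited table holds log2 signals for 35556 transcript clusters, made by the authors with Affymetrix Expression Console, per the submitters' processing notes. The sources used here state no version, summarization method, background correction, log base or genome build. A platform annotation gave 1 gene symbol to 21789 clusters. Where several single-symbol clusters named a gene, the brightest on average was kept; every measured member had 1 cluster.

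Group differences were tested in R 4.3.3 with lmFit and eBayes of limma 3.58.1, with 3 group means over 15 arrays and no block. P-values were adjusted by Benjamini and Hochberg over 19938 genes, with a threshold of 0.05; intervals are 95% intervals of the fit. The number of arrays, 5 per group, limits the precision. All 15 array values are given for Zim1, Peg10, called members and members whose groups did not overlap. Members and lists were chosen with earlier results of these data known. The fit was tested on simulated data. Alternatives were another scaling, a filter on dim genes, the mean of a gene's clusters, other fits and arrays left out. Promoter windows were read from RefSeq.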

Additional observations from a re-analysis of the deposited data

Results flagged for a closer look

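Over the 35 members and 3 groups, 105 sets of 5 arrays were checked for an array far from the other 4, by Dixon's criterion, and 8 had one. Chance gives about 1 in 20, or 5.2 here. Alpha replicate 2 accounts for 3 of the 8: Sgce was lowest there at 5.96 (others 8.10 to 8.55), Rtl1 lowest at 6.42 (others 6.83 to 6.92) and Igf2r highest at 8.64 (others 8.11 to 8.22). In beta replicate 1, Peg10 was highest at 6.79 (others 6.24 to 6.39), and Rtl1 was highest at 7.03 (others 6.64 to 6.75). In alpha replicate 5, Nnat was lowest at 7.11 (others 7.64 to 7.76) and Ppp1r9a highest at 8.24 (others 7.54 to 7.69). In Pdx1-deficient replicate 1, Nnat was highest at 8.83 (others 7.29 to 7.64).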

How the results depend on the processing

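Of the 8 members called in alpha against beta cells, Igf2r, Sgce and Tssc4 were called under all 24 alternatives, Asb4 under 22, Nap1l5 under 18, Rasgrf1 under 16, Grb10 under 14 and Meg3 under 11. Leaving out 1 array gave 3 to 9 called members. For Pdx1-deficient against beta cells the count of 3 became 1 with only the 2 groups in the fit and 0 after a further quantile normalization, and it ran from 0 to 4 with 1 array left out. Replicate numbers did not pair the arrays: of 15 same-number correlations, -0.17 to 0.22, only 5 exceeded 0.1, and 3 arrays correlated best with their own number. The fit with a replicate block called 7 members in alpha and 0 in Pdx1-deficient against beta cells, and 0 between the latter and alpha cells. That last count was 3 without alpha replicate 2, 3 without it and Pdx1-deficient replicate 1, and 3 without alpha replicate 5 as well, and ran from 0 to 3 with 1 array left out. The Pdx1-deficient minus beta difference of Peg10 reversed to -0.206 in all 3 settings without Pdx1-deficient replicate 1, and ran from -0.206 to 0.582 with 1 array left out. Over all genes, 806 calls in alpha against beta cells became 1425 without alpha replicate 2 and Pdx1-deficient replicate 1, and 1182 with array medians subtracted, of which 10.4% were higher, against 22.1%. The 217 calls in Pdx1-deficient against beta cells became 615 with array medians subtracted (4.23% higher, against 14.7%), 407 without dim genes, 626 and 534 without the arrays that stood apart, 121 with a trend and robust moderation, 89 with only the 2 groups, 29 after quantile normalization and 8 with the replicate block (6 higher, 2 lower). Between Pdx1-deficient and alpha cells, 0 calls became 177 without both arrays and 106 without alpha replicate 5 as well. Fewer arrays enter the fits that leave some out, and calls over all genes rose in some of these fits and fell in others. The cause of the changes was not tested for any setting.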
